A study of Mus musculus with 24 samples.

Results

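The perilipins Plin2, Plin3, Plin4 and Plin5 were followed across 6 groups of mouse embryonic fibroblasts (MEFs). These 4 genes were chosen by name, as members of the family of lipid droplet coat proteins, out of 55487 genes in the count table, with their levels in the 6 groups already known. Their differences between groups are therefore given as descriptions with standard errors and without p-values. The cells were wild-type (WT) MEFs and MEFs in which Tfeb and Tfe3 had been knocked out (tfeb tfe3 DKO), each treated with vehicle (DMSO), torin1 or MK-8722. Torin1 is an ATP-competitive inhibitor of the kinase MTOR, and MK-8722 is an allosteric activator of AMPK. Each of the 6 groups had 4 libraries of poly(A) RNA, and the comparison of interest was how far the response to each drug depended on the transcription factors TFEB and TFE3. Dose and duration were not in the labels used here. There was 1 line per genotype, so the genotype cannot be told apart from other differences between the lines, and the 4 libraries of a group came from 4 passages of a line (7, 8, 9 and 11 for WT; 8, 9, 10 and 11 for DKO), so the errors measure the spread between passages. The labels do not say that libraries were otherwise separate cultures.

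Perilipins coat the surface of lipid droplets, the organelles in which cells store triglyceride and sterol esters. They limit or direct the access of lipases to the stored lipid and so help to set the rate of lipolysis. PLIN1 is typical of adipocytes, PLIN2 and PLIN3 are found in most cells, PLIN4 is best known from fat and muscle, and PLIN5 is best known from oxidative tissues such as the heart. TFEB and TFE3 are basic helix-loop-helix factors that activate lysosomal and autophagy genes when MTORC1 is inhibited, and they bind E-box sequences in DNA.

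Plin4, Plin5 and Plin3 lie together on chromosome 17 and Plin2 on chromosome 4, all on the minus strand. In GRCm38 with GENCODE M21, Plin4 (ENSMUSG00000002831) spanned chr17:56100591-56109803, Plin5 (ENSMUSG00000011305) chr17:56111601-56117596 and Plin3 (ENSMUSG00000024197) chr17:56277476-56292873. Plin4 ended 1797 bases from Plin5, and Plin5 159879 bases from Plin3. Plin2 (ENSMUSG00000028494) spanned chr4:86648386-86670060. The 3′ end of Plin4 overlapped the plus-strand gene Hdgfl2. The log2 fold changes of Hdgfl2 over 11 comparisons lay between -0.17 and 0.13, all under a fold change of 1.2. In 5 of them its edgeR adjusted p was under 0.05.

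The promoters of Plin2 and Plin4 are shown because these genes differed most in their response to the drugs. Each sequence is the RefSeq promoter of GRCm38.p6 on the minus strand, 250 bases before to 50 bases after the annotated start, at chr4:86670010-86670309 and chr17:56109733-56110032. Capitals mark every match to the motifs searched on both strands. These were the E-box CACGTG, its longer palindrome TCACGTGA, the E-box variant CATGTG, the nuclear receptor half-site AGGTCA and the forkhead motif GTAAACA.
Plin2: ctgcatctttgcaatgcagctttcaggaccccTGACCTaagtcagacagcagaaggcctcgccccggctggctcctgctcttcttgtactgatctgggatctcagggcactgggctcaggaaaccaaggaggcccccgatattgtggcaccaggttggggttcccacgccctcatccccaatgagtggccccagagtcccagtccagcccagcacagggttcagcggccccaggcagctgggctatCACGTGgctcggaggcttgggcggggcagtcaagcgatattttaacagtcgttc
Plin4: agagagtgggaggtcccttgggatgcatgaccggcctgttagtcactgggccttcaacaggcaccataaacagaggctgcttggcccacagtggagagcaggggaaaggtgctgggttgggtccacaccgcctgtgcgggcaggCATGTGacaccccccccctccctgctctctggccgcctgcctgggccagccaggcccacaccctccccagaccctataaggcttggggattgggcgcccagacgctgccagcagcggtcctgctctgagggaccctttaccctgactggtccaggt
The Plin2 promoter held the E-box CACGTG, beginning 4 bases before the start, and the nuclear receptor half-site AGGTCA in its reverse form TGACCT, beginning 218 bases before it. The Plin4 promoter held CATGTG, beginning 106 bases before the start, and none of the other motifs. Neither of the promoter windows listed for Plin5 held CACGTG or CATGTG, and each held AGGTCA. Other forms of the E-box were not searched. The Plin3 window held none of the 5 motifs. Among 32851 RefSeq mouse promoters of the same length, CACGTG was present in 7.15%, TCACGTGA (which contains CACGTG) in 0.974%, CATGTG in 14.155%, AGGTCA in 16.255% and GTAAACA in 3.65%. These matches describe letters in a window, and no binding was measured here.

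The 24 libraries held between 24668921 and 33332562 estimated counts, and 15401 genes passed the filter on low counts. CPM denotes counts scaled to the library total after that total was multiplied by the library's TMM scaling factor (0.95 to 1.08). Tfeb was at 22.9 ± 1.74 CPM (SD, n = 4) in WT under DMSO and at 2.25 ± 0.289 CPM (SD, n = 4) in DKO. Tfe3 mRNA did not separate the genotypes, at 120 ± 1.17 CPM and 124 ± 2.11 CPM (SD, n = 4 each), so Tfe3 counts did not check the labels. All 10 fibroblast markers passed the filter, although Dcn had a median of only 0.239 CPM. Thy1 had counts in only 13 libraries, and none in the DKO libraries under DMSO or torin1. Of 10 adipocyte markers, Fabp4 and Lipe passed, and Adipoq, Lep and Cidec had at most 1 count in any library. Of 7 macrophage markers, Csf1r and Cd68 passed, Adgre1 had no count in any library and Ptprc at most 5. RNA integrity numbers were 9.7 to 9.9 except for 1 DKO library with MK-8722 (replicate 3, passage 10) at 7.9. The 3 WT libraries of passage 11 lay farthest from their group means (0.331 to 0.364 log2 units root mean square over all genes, against 0.202 to 0.269 for the others). In bulk RNA, fewer cells of a kind and less RNA per cell cannot be told apart.

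Plin2 supplied most of the perilipin mRNA in every group. Per length, summed over all 5 perilipins in TPM, which scales counts for transcript length and depth, the WT DMSO libraries held 196 ± 9.39 TPM (SD, n = 4), of which Plin2 made up 82.4% ± 0.737, Plin3 17.5% ± 0.72 and Plin4 0.0879% ± 0.0239. These shares depend on how Plin2 counts were split among transcripts of 551 to 1888 bases. In CPM, which is not scaled for length, the WT DMSO means were 127 for Plin2 and 69.1 for Plin3. In WT the sum was 349 ± 4.95 TPM after torin1 and 229 ± 9.18 TPM after MK-8722. The DKO sums were 188 ± 11.2 TPM under DMSO, 305 ± 14.4 TPM after torin1 and 161 ± 4.46 TPM after MK-8722 (SD, 4 libraries each). The sum was highest with torin1 in both genotypes. With MK-8722 every library lay above every DMSO library in WT (222 to 243 against 189 to 209 TPM) and below every DMSO library in DKO (157 to 167 against 172 to 197 TPM). With MK-8722, Plin3 made up 25.3% ± 2.3 in WT and 26.4% ± 3.71 in DKO, above its share in every library of the other 4 groups (15.8% to 19%). Plin4 reached at most 1.56% of the sum in any library.

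**Figure D1:**
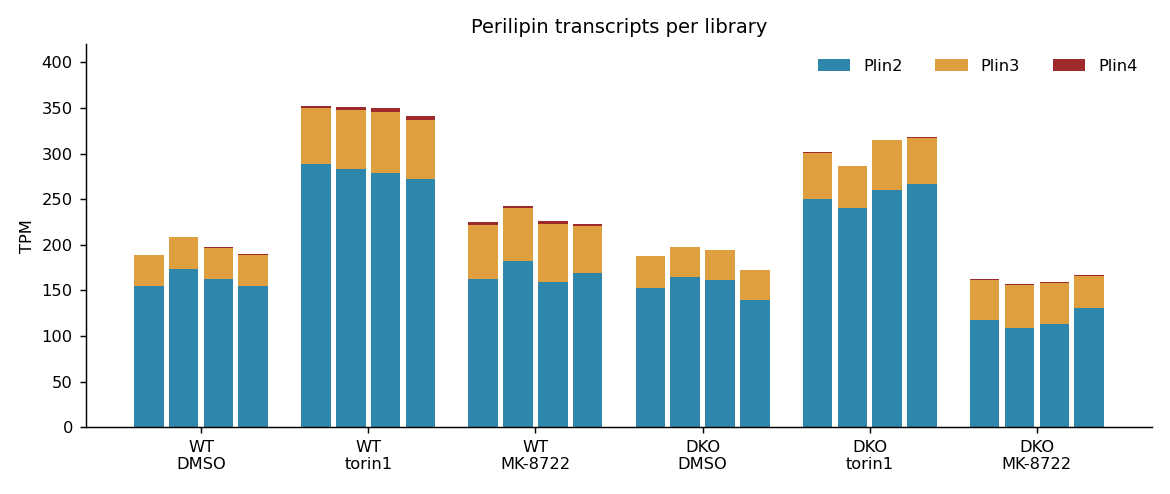
Stacked bars give the TPM of Plin2, Plin3 and Plin4 in each of the 24 libraries, replicates 1 to 4 from left to right within a group. The bars were tallest with torin1 (342 to 353 TPM in WT, 287 to 317 TPM in DKO) and lowest with MK-8722 in DKO (157 to 167 TPM).

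Plin2, the ubiquitous droplet coat protein, was higher with torin1 in both genotypes and lower with MK-8722 in DKO, while its WT levels with MK-8722 and DMSO overlapped. Its WT levels were 121, 127, 122 and 141 CPM under DMSO, 204, 204, 196 and 203 CPM with torin1, and 128, 121, 130 and 139 CPM with MK-8722, each in the order of passages 7, 8, 9 and 11. Every torin1 library exceeded every DMSO library, whereas the MK-8722 and DMSO libraries overlapped. In DKO, in the order of passages 8, 9, 10 and 11, Plin2 was at 137, 112, 128 and 117 CPM under DMSO, at 208, 190, 197 and 183 CPM with torin1, and at 106, 86.9, 87.8 and 87.1 CPM with MK-8722. The 3 DKO groups did not overlap, although the passage 8 library with MK-8722 (106 CPM) came close to the lowest DMSO library (112 CPM).

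The log2 fold change of Plin2 with torin1 was 0.66 ± 0.07 (SE) in WT and 0.65 ± 0.07 (SE) in DKO, or 1.58-fold and 1.57-fold. With MK-8722 it was 0.03 ± 0.07 in WT and -0.43 ± 0.07 in DKO, and the response in DKO minus that in WT was -0.46 ± 0.1 (SE). The corresponding difference for torin1 was -0.01 ± 0.1. Plin2 did not separate the genotypes under DMSO (-0.04 ± 0.07) or torin1 (-0.05 ± 0.07), where the libraries overlapped. With MK-8722 it was 1.41-fold lower in DKO (log2 fold change -0.50 ± 0.07), with all 4 DKO libraries below all 4 WT libraries.

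Plin3, a cytosolic perilipin that coats newly formed droplets, was higher with both drugs in both genotypes. Its WT levels over passages 7, 8, 9 and 11 were 64.2, 69.6, 72 and 70.4 CPM under DMSO, 119, 130, 118 and 111 CPM with torin1, and 103, 117, 125 and 114 CPM with MK-8722. Both drug groups lay above all DMSO libraries and overlapped each other. In DKO over passages 8, 9, 10 and 11 it was at 66.4, 67, 69.8 and 70.7 CPM under DMSO, 96.8, 102, 105 and 95.4 CPM with torin1, and 80, 83, 88.4 and 88.4 CPM with MK-8722. The 3 DKO groups did not overlap.

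The log2 fold change of Plin3 was 0.79 ± 0.05 (SE) with torin1 and 0.73 ± 0.05 with MK-8722 in WT, and 0.54 ± 0.05 and 0.31 ± 0.05 in DKO. The DKO response minus the WT response was -0.25 ± 0.08 for torin1 and -0.42 ± 0.08 for MK-8722. Plin3 did not separate the genotypes under DMSO (-0.01 ± 0.05). Under torin1 it was 1.2-fold lower in DKO (-0.27 ± 0.05), a difference at the 1.2-fold threshold, and under MK-8722 1.35-fold lower (-0.43 ± 0.05). All 4 DKO libraries lay below all 4 WT libraries under either drug.

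Plin4, a perilipin with a long amphipathic repeat, was the least abundant of the 3 but showed the widest range. In WT over passages 7, 8, 9 and 11 it was at 0.83, 0.784, 0.613 and 0.512 CPM under DMSO, at 17, 18.8, 13.1 and 9.76 CPM with torin1, and at 8.37, 13.6, 12.9 and 10.9 CPM with MK-8722. The lowest drug-treated WT library held 215 counts and the highest DMSO library 27. In DKO over passages 8, 9, 10 and 11 it was at 1.24, 1.68, 1.77 and 1.68 CPM under DMSO, at 2.57, 3.99, 3.31 and 3.09 CPM with torin1, and at 3.93, 6.45, 4.76 and 4.09 CPM with MK-8722. Every DKO library under DMSO lay above every WT library under DMSO, and every drug-treated DKO library lay below every drug-treated WT library.

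The log2 fold change of Plin4 in WT was 4.42 ± 0.25 (SE) with torin1 and 4.06 ± 0.25 with MK-8722, or 21.4-fold and 16.7-fold. Each was the fifth highest of the 15401 genes tested. In DKO it was 1.02 ± 0.24 and 1.59 ± 0.23, or 2.02-fold and 3.01-fold. The DKO response minus the WT response was -3.40 ± 0.35 for torin1 and -2.47 ± 0.35 for MK-8722 (SE), of which part was the higher DMSO level in DKO (1.22 ± 0.29, 2.33-fold). Under the drugs themselves Plin4 was 4.52-fold lower in DKO with torin1 (-2.18 ± 0.2) and 2.37-fold lower with MK-8722 (-1.25 ± 0.2). The comparisons of a genotype with its DMSO group share those 4 libraries.

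Markers of other cell types also moved between the groups. The sum of the 7 macrophage markers ranged over 2.11 to 2.84 CPM in WT under DMSO. Cd68, a lysosomal glycoprotein gene, had the highest median level of the 7. The WT sum ranged over 5.19 to 7.2 CPM after torin1, and over 11 to 14.7 CPM after MK-8722. In DKO the ranges were 4.7 to 6.82, 5.25 to 9.52 and 8.33 to 12 CPM, in the same order, and Adgre1 stayed without a count. The adipocyte markers, of which only Fabp4 and Lipe had more than 3 counts in any library, summed to 6.27 to 8.14 CPM in WT and 2.59 to 4.81 CPM in DKO. The 8 skeletal muscle markers, of which Acta1 alone passed the filter, summed to 0.511 to 1.11 CPM under DMSO, 0.254 to 1.14 CPM after torin1 and 0.779 to 1.76 CPM after MK-8722 in WT. In DKO they were higher, at 3.61 to 6.19, 2.69 to 4.70 and 6.54 to 10.1 CPM in that order, and Myod1 had at most 1 count in any library. The 6 epithelial markers, of which Krt8 had the highest median level, summed to 2.83 to 4.61, 5.68 to 7.49 and 3.81 to 5.24 CPM in WT and to 2.99 to 4.87, 9.95 to 14.6 and 5.97 to 11.3 CPM in DKO. The part of these lists in the Plin4 levels was not tested.

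Plin5, which tethers droplets to mitochondria in oxidative tissues, had too few counts to compare groups. It failed the filter on low counts, the only 1 of the 4 members to do so. It held 1 to 3 counts per library in WT under DMSO, 1 to 6 with torin1 and 0 to 5 with MK-8722. In DKO it held 0 or 1 under DMSO, 1 or 2 with torin1 and 0 or 1 with MK-8722. Summed over 4 libraries the counts were 8, 14 and 11 in WT and 2, 6 and 3 in DKO, and no fold is given. Plin1, outside the members, held at most 3 counts in a library. Differences in either gene were not tested at this depth.

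The order of the 6 groups differed between the 3 genes. For Plin2 the order by mean was WT torin1 (202 CPM), DKO torin1 (195), WT MK-8722 (130), WT DMSO (127), DKO DMSO (124) and DKO MK-8722 (92). The torin1 groups overlapped each other, the next 3 overlapped, and DKO MK-8722 stood apart. For Plin3 it was WT torin1 (120), WT MK-8722 (115), DKO torin1 (99.6), DKO MK-8722 (85), WT DMSO (69.1) and DKO DMSO (68.5). There the first 3 overlapped as neighbours, DKO MK-8722 stood apart from both neighbours and the DMSO groups overlapped. For Plin4 it was WT torin1 (14.7), WT MK-8722 (11.4), DKO MK-8722 (4.81), DKO torin1 (3.24), DKO DMSO (1.59) and WT DMSO (0.685). In that order only the first pair and the DKO drug groups overlapped.

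The drugs themselves differed for Plin2 in particular. Torin1 against MK-8722 gave log2 fold changes of 0.64 ± 0.07 (SE) in WT and 1.08 ± 0.07 in DKO, with no overlap in either genotype. For Plin3 they were 0.06 ± 0.05 and 0.23 ± 0.05, and the groups overlapped in WT but not in DKO. For Plin4 they were 0.35 ± 0.18 in WT and -0.58 ± 0.21 in DKO, with overlapping libraries in both genotypes. Leaving out single libraries gave 0.21 to 0.48 for Plin4 in WT, lowest without WT torin1 replicate 4 (0.21) or WT MK-8722 replicate 4 (0.22), and -0.68 to -0.40 in DKO. Within passages the WT difference ran from -0.16 to 1.01, above 0 in 3 of 4 passages, and the DKO difference from -0.68 to -0.40, so the sign was constant in DKO and not in WT. The doses of the drugs were not matched on any scale known here.

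**Figure D2:**
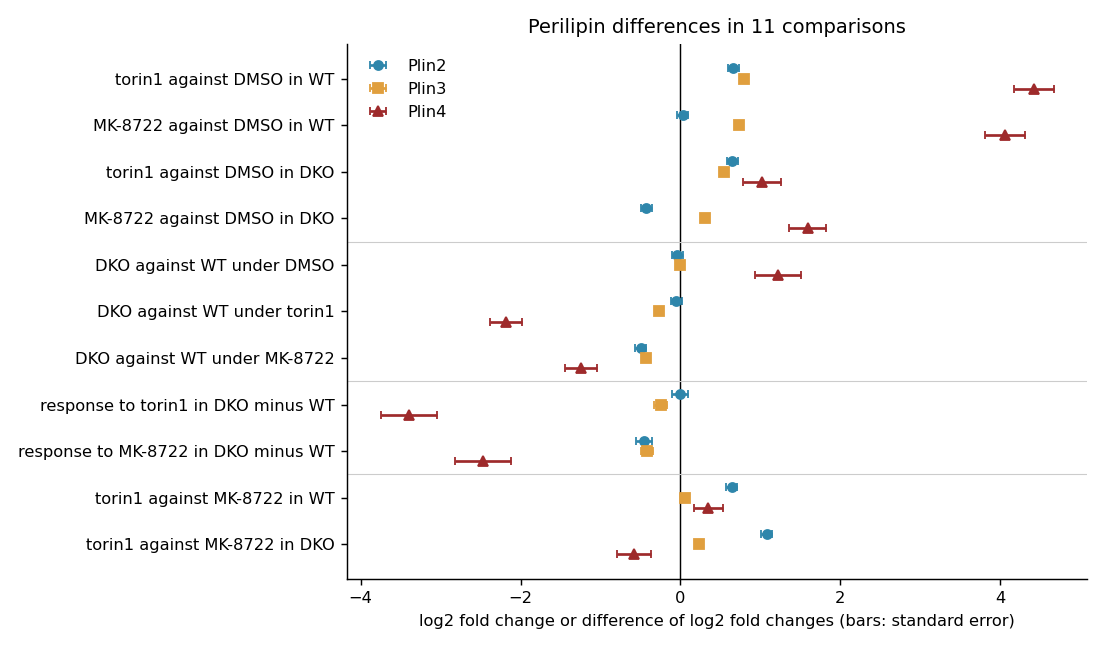
Each point is a log2 fold change, or for the "minus" comparisons a difference of log2 fold changes, with its standard error, for Plin2, Plin3 and Plin4 in 11 comparisons. Plin4 lay at 4.42 and 4.06 in the WT drug comparisons and at 1.02 and 1.59 in DKO, while Plin2 and Plin3 stayed between -0.50 and 1.08 throughout.

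Set against all genes, the members' changes came from comparisons in which many genes passed the same threshold (adjusted p under 0.05 and at least 1.2-fold). With torin1 in WT all 3 measurable members were past it, higher, where 47.1% of the 15401 genes were past it in either direction. With MK-8722 in WT 2 were, where 16.1% of genes were. With torin1 in DKO all 3 were past it, against 43.2%, and with MK-8722 in DKO all 3, 1 of them lower (Plin2), against 8.69%. Between genotypes 1 member was past it under DMSO (48.2% of genes), 2 under torin1 (51.8%) and 3 under MK-8722 (48.7%). The response in DKO minus WT was past it for 1 member with torin1, where 11% of genes were, and for 3 with MK-8722, where 5.49% were. Torin1 against MK-8722 placed 1 member past it in WT (44.9%) and 2 in DKO (40.4%). Since the members were chosen with their levels in these groups already known, nothing is read from these counts.

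Plin3 against the 1.2-fold threshold and Plin4 between the drugs depended on single libraries and settings. The counts of settings below describe how near the members lay to the threshold. They are not tests of the members, which were chosen with their levels known. Plin3 in DKO against WT under torin1 was past the threshold in 11 of 20 other settings, with log2 fold changes from -0.22 to -0.29 as single libraries were left out, and it fell short without DKO torin1 replicate 2 or 4 or WT torin1 replicate 3 or 4. Its torin1 response in DKO minus WT was past it in 7 of 28 (-0.20 to -0.27 over single libraries left out), 4 of them without DKO DMSO replicate 2 or 4, DKO torin1 replicate 3 or WT DMSO replicate 4. Plin4 between the drugs was past it in 4 of 20 in WT, among them a fit with passage as a block (0.33) and the fit without WT torin1 replicate 1 (0.48). In DKO it was past it in 16 of 20, and fell short without DKO MK-8722 replicate 1 (-0.40), without DKO torin1 replicate 2 (-0.54) or 4 (-0.47), and in a test against a fold change of 1.2 (-0.58).

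The differences were also compared within passages, where each value is 1 library minus another. Plin4 was higher with torin1 in all 4 WT passages, by 4.08 to 4.47 log2 units, and with MK-8722 by 3.23 to 4.24. In DKO the corresponding ranges were 0.85 to 1.21 and 1.25 to 1.89. Plin3 was higher with either drug in every passage of both genotypes, by 0.66 to 0.90 (torin1) and 0.69 to 0.80 (MK-8722) in WT. Plin2 was lower with MK-8722 in all 4 DKO passages, by -0.55 to -0.37, and in WT it was higher in 2 and lower in 2 of 4 passages. The genotypes shared passages 8, 9 and 11. Over these, Plin4 in DKO minus WT was 0.61 to 1.59 under DMSO, -2.84 to -1.64 under torin1 and -1.78 to -0.99 under MK-8722.

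**Figure D3:**
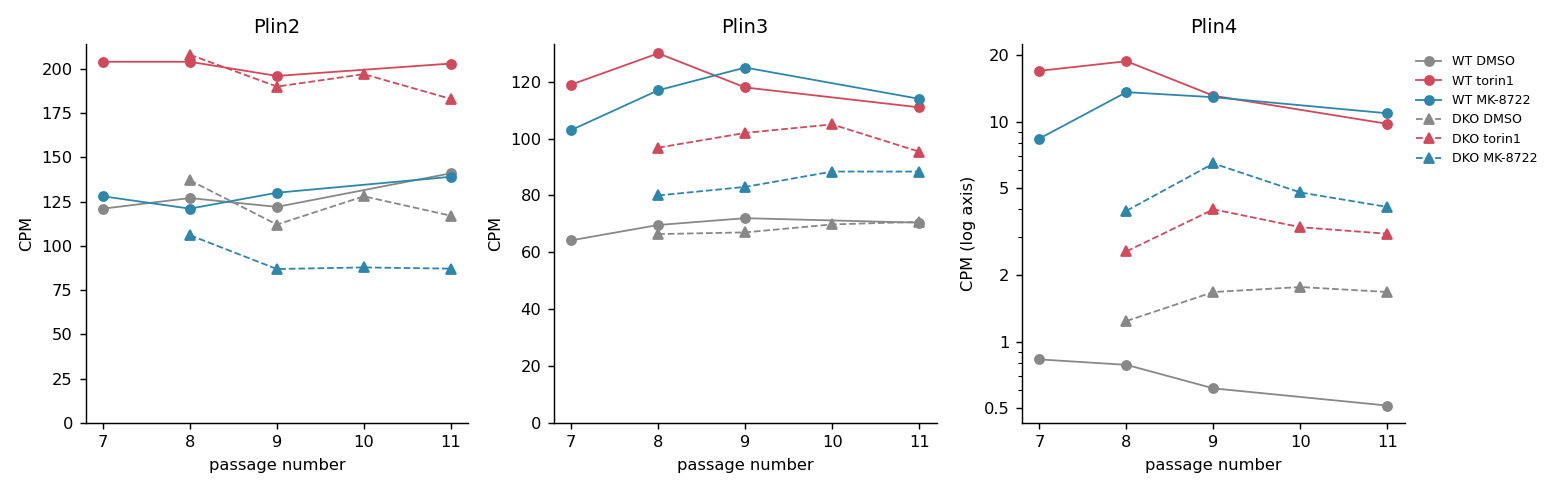
CPM (log axis for Plin4) against passage number for the 6 groups, 1 library per point, with solid lines for WT and broken lines for DKO. Among WT DMSO libraries Plin4 ran from 0.83 CPM at passage 7 to 0.512 CPM at passage 11, and among DKO libraries Plin4 was lowest at passage 8 in each of the 3 groups.

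Plin3 and Plin4 were the most alike of the 3 members across libraries. Over the 24 libraries the log2 CPM of Plin3 and Plin4 had a Pearson r of 0.91, and after subtraction of the group means r was 0.46. For Plin2 with Plin3 the values were 0.53 and -0.11, and for Plin2 with Plin4 0.27 and -0.44. These are descriptions over libraries that share line, passage and treatment. Without the WT libraries of passage 11 and the DKO libraries of passage 8, Plin4 gave 4.44 and 3.96 in WT and 1.02 and 1.58 in DKO (torin1 and MK-8722), and Plin2 with MK-8722 in DKO gave -0.45. This selection of libraries was made after their deviations had been seen.

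The genes whose level across the 24 libraries was most like that of each member, by Pearson r of log2 CPM, were named by rule. For Plin4 they were Mroh1 (0.966), Pip4k2c (0.955), Galm (0.955), Gpnmb (0.953) and Sirt2 (0.949). For Plin3 they were Retreg1 (0.973), Coro1b (0.953), Hsd3b7 (0.950), Capg (0.949) and Hs1bp3 (0.948). For Plin2 they were Zfp28 (0.957), Nfkbil1 (0.950), Snhg12 (0.949), 1110038B12Rik (0.943) and Stard9 (0.942). With rank correlation 4 of the 5 remained for Plin4, 3 for Plin3 and 0 for Plin2.

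Transcript use within the members was not part of how they were chosen and was tested. Of the annotated transcripts, 13 passed the filter, 8 of Plin2, 2 of Plin3 and 3 of Plin4. Among Plin2 transcripts annotated as coding, ENSMUST00000000466 (8 exons) held 48.1% to 60.2% of Plin2 TPM over the 24 libraries. ENSMUST00000147097, ENSMUST00000140382 and ENSMUST00000149700, also annotated as coding, held 9.79% to 17.7%, 5.97% to 10.6% and 6.2% to 10.4%. The 562-base ENSMUST00000233070 held 3.97% to 22.6% of Plin3 TPM, with ENSMUST00000019726 holding the rest. In edgeR's test of transcript use, 0 of the 13 transcripts passed an adjusted p of 0.05 in any of the 11 comparisons, where 1.39% of the 53503 transcripts tested did in at least 1. The smallest unadjusted p among the 143 tests was 0.0124 (adjusted p = 0.57, edgeR), and 3 had an unadjusted p under 0.05. limma also called 0, with 7 tests at an unadjusted p under 0.05 and a lowest adjusted p of 0.156, and an exact two-sided permutation test of the shares called 0 of 117. With 4 libraries against 4 that test cannot go below 0.0286.

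The smallest p belonged to ENSMUST00000138605, a 3-exon noncoding transcript of Plin2, with torin1 against MK-8722 in DKO. Its share of Plin2 TPM was 6.71% ± 1.37 after torin1 and 4.22% ± 1.29 after MK-8722 (SD, n = 4 each), and the libraries overlapped (4.68% to 7.7% and 3.15% to 5.99%). The Plin4 transcripts could hardly be told apart. ENSMUST00000238734 held the highest median share (56.9%), and ranged over 0% to 100% of Plin4 TPM. ENSMUST00000190703 (median 29.1%) and ENSMUST00000002908 (median 10.3%) are 5756 and 5755 bases long with 9 exons each, and ranged over 0% to 79.9% and 0% to 43.4%. The widest ranges came from the DMSO libraries, which held few Plin4 counts (17 to 27 in WT and 29 to 49 in DKO). In WT, ENSMUST00000238734 held 49.9% to 63.4% after torin1 and 49.2% to 60.0% after MK-8722. How small a shift in use of these transcripts could be detected was not tested.

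Around the lipid droplet, 4 lists of other genes were examined, and each gene was called or not by the edgeR fit (quasi-likelihood, p adjusted by Benjamini-Hochberg over all 15401 genes). Of 78 names, 76 were in the table and 63 passed the filter. With torin1, 19 rose and 13 fell in WT (50.8% called, beside 47.1% of all genes) and 14 rose and 15 fell in DKO (46.0% beside 43.2%), shares near those of all genes. With MK-8722, 11 rose and 7 fell in WT (28.6% beside 16.1%) and 7 rose and 8 fell in DKO (23.8% beside 8.69%). The median log2 fold changes of the 63 genes were 0.08, -0.05, 0.04 and -0.04 in that order of WT and DKO within each drug, beside 0.05, 0.02, -0.01 and 0 for all genes.

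Of 8 lipolysis genes tested, Pnpla2, which encodes the triglyceride lipase ATGL, rose with both drugs in both genotypes. Its log2 fold changes were 0.30 ± 0.04 (SE; edgeR adjusted p = 4.02e-07) and 0.33 ± 0.04 in WT and 0.55 ± 0.04 and 0.31 ± 0.04 in DKO (torin1 and MK-8722). Pnpla2 was also higher in DKO under DMSO, at 69.5 ± 1.17 CPM against 47.3 ± 2.16 CPM (SD, n = 4 each). Lipa, the lysosomal acid lipase, rose with torin1 in WT (0.45 ± 0.08), and its response was smaller in DKO (difference -0.35 ± 0.12, edgeR adjusted p = 0.0472). Hilpda, an inhibitor of ATGL, fell with torin1 in WT (-0.41 ± 0.1) and with both drugs in DKO (-0.27 ± 0.11 and -0.37 ± 0.11). In DKO the Hilpda libraries overlapped those under DMSO with either drug. Abhd5, the ATGL coactivator, fell with torin1 in DKO (-0.37 ± 0.08), and its response differed by genotype for both drugs (-0.42 ± 0.11 and -0.41 ± 0.11). Between genotypes under DMSO, Mgll, the monoglyceride lipase, was 4.71-fold higher in DKO, and Lipe, the hormone-sensitive lipase, was lower (-1.27 ± 0.14). Mgll was at low levels, with means of 2.77 CPM in DKO and 0.579 CPM in WT.

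Of 20 genes of triglyceride and sterol ester synthesis, 4 rose and 9 fell with torin1 in WT (65.0% called, beside 47.1% of all genes) and 3 rose and 8 fell in DKO (55.0% beside 43.2%). Dgat1, which makes triglyceride from diglyceride, rose with torin1 (0.34 ± 0.05 and 0.27 ± 0.05), whereas Dgat2 fell (-0.49 ± 0.15 and -0.70 ± 0.16, WT and DKO). Acsl3, an acyl-CoA synthetase found on droplets, fell with torin1 in both genotypes (-0.74 ± 0.11 and -0.53 ± 0.11) and rose with MK-8722 (0.29 ± 0.11 and 0.44 ± 0.11). In WT the Acsl3 libraries with MK-8722 (37.8 to 57.9 CPM) overlapped those under DMSO (33.8 to 48.7 CPM). With MK-8722, 5 rose and 2 fell in WT and 4 rose and 2 fell in DKO. Lpin1, a phosphatidate phosphatase, rose in both genotypes (0.75 ± 0.22 and 1.02 ± 0.23), but its libraries overlapped those under DMSO. In WT it was at 8.99 to 17.6 CPM against 6.86 to 11.0 CPM under DMSO, and in DKO at 8.13 to 21.3 CPM against 5.34 to 9.70 CPM. Soat1, which esterifies cholesterol, rose with MK-8722 in WT (0.52 ± 0.07), and its response was smaller in DKO (difference -0.42 ± 0.1, edgeR adjusted p = 0.00695). Soat2 passed the test with torin1 in both genotypes (-3.87 ± 1.37 and -3.96 ± 1.1), but at 0.0373 to 1.11 CPM in WT DMSO libraries against 0 to 0.0653 CPM with torin1 its WT groups overlapped.

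Of 15 other droplet genes, 5 rose and 0 fell with torin1 in WT, where edgeR called 0 falls (33.3% called, beside 47.1% of all genes), and 4 rose and 2 fell in DKO (40.0% beside 43.2%). Hsd17b11, a droplet-associated dehydrogenase, rose in both (1.02 ± 0.07 and 0.99 ± 0.08), as did Vps13c, a lipid transfer protein (0.96 ± 0.08 and 0.95 ± 0.08). Cideb, a droplet fusion protein, rose with torin1 in WT at low levels, from 0.200 ± 0.0903 to 0.552 ± 0.156 CPM (SD, n = 4 each), and edgeR did not call its response different between genotypes (-1.49 ± 0.67). Pcyt1a, the enzyme that supplies phosphatidylcholine for growing droplets, fell with torin1 in DKO (-1.04 ± 0.06) and with MK-8722 in DKO (-0.35 ± 0.06). Its responses differed by genotype (-0.85 ± 0.08, edgeR adjusted p = 1.58e-07, and -0.49 ± 0.08). Bscl2, which encodes the droplet assembly protein seipin, was lower in DKO under DMSO (-1.95 ± 0.1).

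Of 20 genes of fatty acid uptake, oxidation and PPAR response, 8 rose and 3 fell with torin1 in WT (55.0% called, beside 47.1% of all genes) and 5 rose and 3 fell in DKO (40.0% beside 43.2%). Cpt1a, the entry enzyme of mitochondrial fatty acid oxidation, rose with torin1 in both (1.73 ± 0.06 and 1.12 ± 0.06) and fell with MK-8722 in DKO (-0.47 ± 0.07). Fabp3, a fatty acid binding protein, rose with torin1 and MK-8722 in WT (1.15 ± 0.22 and 1.19 ± 0.22), and its response was lower in DKO for both drugs (-1.59 ± 0.33, edgeR adjusted p = 0.00206, and -1.42 ± 0.33, adjusted p = 0.00874). Pparg, a nuclear receptor for which several droplet genes are targets, rose with both drugs in WT (0.76 ± 0.16 and 0.85 ± 0.16) and was lower in DKO under DMSO (-1.43 ± 0.19). Angptl4, a secreted lipoprotein lipase inhibitor, fell with MK-8722 in both genotypes (-2.19 ± 0.25 and -1.35 ± 0.22) and rose with torin1 in DKO (1.13 ± 0.19). Its group means were also low, from 0.3 CPM (WT with MK-8722) to 3.61 CPM (DKO with torin1).

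**Figure D4:**
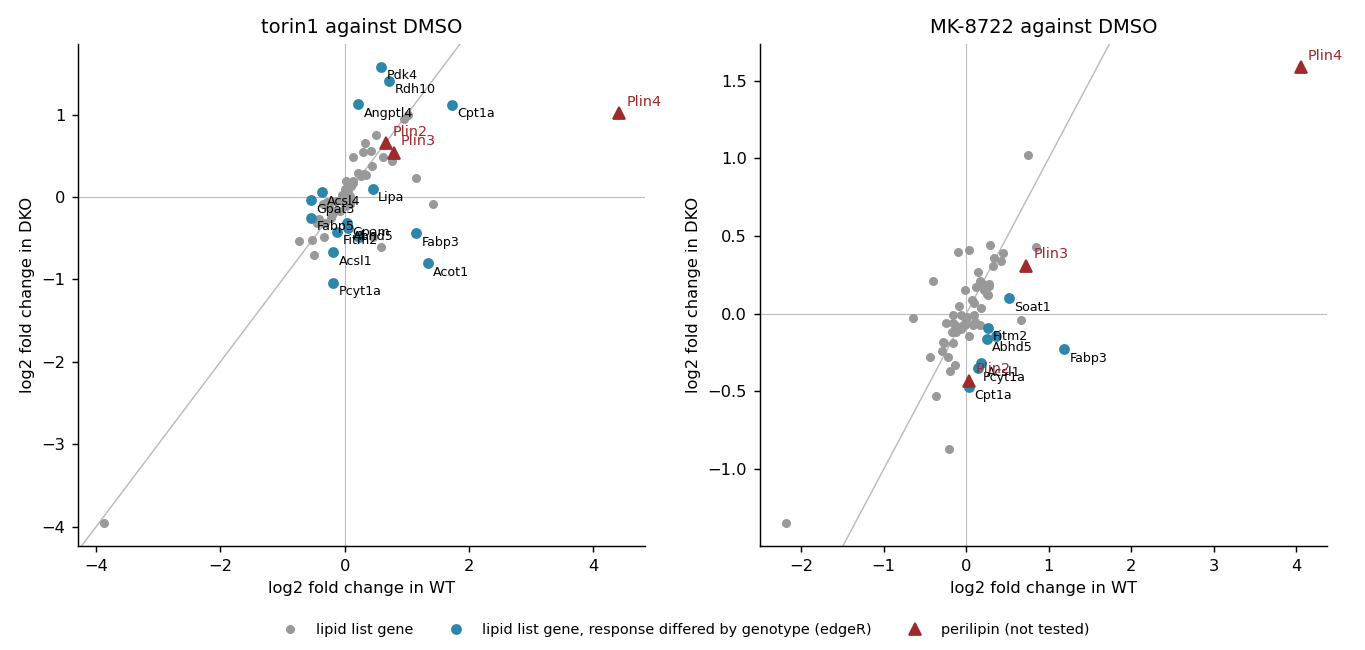
Log2 fold change against DMSO in WT (x axis) and DKO (y axis) for 63 lipid genes and the 3 measurable perilipins, for torin1 (left) and MK-8722 (right), with the line of equal response. Blue points are the 16 (torin1) and 8 (MK-8722) list genes whose response differed between genotypes by edgeR, all but 1 of them named in each panel, and Plin4 lies farthest to the right in both panels, at 4.42 and 4.06 in WT.

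For the response in DKO minus WT, 6 of the 63 list genes were higher and 10 lower with torin1 (25.4% called, beside 11% of all genes), and 0 were higher and 8 lower with MK-8722 by edgeR (12.7% beside 5.49%). Between genotypes under DMSO, 11 list genes were higher and 22 lower in DKO (52.4% called, beside 48.2% of all genes). Mogat2, a monoacylglycerol acyltransferase, was lower by 6.56 ± 0.2 log2 units, at no less than 8.79 CPM in the WT libraries and no more than 0.160 CPM in the DKO libraries, and Gpat3 and Ucp2 were also lower (-2.65 ± 0.11 and -3.01 ± 0.12).

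Genes next to the perilipins were examined within 250 kb. Around Plin4, 21 neighbours other than the members were tested. With torin1 in WT 8 rose and 5 fell (61.9% called, beside 47.1% of all genes). With MK-8722 in WT 1 rose (Ubxn6, 0.33) and 1 fell (Uhrf1, -0.28), or 9.52% beside 16.1% of all genes. For the response in DKO minus WT edgeR called 0 of the 21 with either drug, beside 11% (torin1) and 5.49% (MK-8722) of all genes. Around Plin2, 5 neighbours were tested, Rraga, Haus6, Dennd4c, Rps6 and Acer2. Of these, edgeR called 0 rising and 1 falling with torin1 in WT, beside 47.1% of all genes called. With MK-8722 in WT it called 0, beside 16.1%. Under DMSO all 5 were lower in DKO than in WT, where 48.2% of all genes were called in either direction. The difference was -0.31 to -0.40 for 4 of them, whereas Plin2 differed by -0.04 ± 0.07.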

How the data were processed

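Poly(A) RNA of 24 MEF libraries was sequenced as 52-base pairs. The authors aligned the reads with STAR to GRCm38 and quantified them with salmon in the nf-core rnaseq workflow with an Ensembl annotation, considering unique molecular identifiers. Read length was taken from the labels. The deposited gene table holds estimated counts, neither scaled for depth nor for length, and the deposited transcript files hold estimated counts and TPM, which is scaled for both. Totals ranged from 24668921 to 33332562 counts per library, and 0 columns were left without a sample.

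Counts were rounded, filtered with edgeR's filterByExpr (minimum count of 10) and scaled by TMM (factors 0.95 to 1.08). One mean per group was fitted to all 24 libraries with edgeR 4.0.16 in R 4.3.3 (quasi-likelihood, 18 residual degrees of freedom, biological coefficient of variation 10.7%). Passage was not a term in this fit, from which the standard errors and list calls came. Genes other than the members were called at a Benjamini-Hochberg adjusted p under 0.05 over 15401 genes and a fold change of at least 1.2. Members were set against the same threshold as a description only. Log2 CPM for correlations used a prior count of 2. TPM of a gene was the sum over its transcripts. Transcript use was tested with edgeR's diffSpliceDGE and with limma 3.58.1. DESeq2 1.42.0 and scipy 1.17.1 served alternatives and exact tests. The code was tested on simulated data, where edgeR's test of transcript use missed more altered transcripts than limma's. Members and lists were chosen with earlier results of these data known.

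Named were all members with Plin1, in each lipid list up to 3 called genes with the largest rise and up to 3 with the largest fall per comparison, tested neighbours starting within 250 kb, the 5 genes most correlated with each member, the members' tested transcripts, and Tfeb and Tfe3. Of these, 1 list gene is counted in the lists but not reported here. Promoter sequences came from RefSeq (GRCm38.p6) and positions from GENCODE M21, for which 55141 of 55487 genes matched. Passage numbers came from the labels. Same-numbered replicates did not deviate together (13 of 60 pairs over r = 0.1, median 0.044), whereas libraries of a passage did more often (17 of 24, median 0.157). The transcript ENSMUST00000238734 of Plin4 had no entry in that annotation.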

Additional observations from a re-analysis of the deposited data

Results flagged for a closer look

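Of 18 sets of 4 libraries (Plin2, Plin3 and Plin4 in 6 groups), 3 held a library far from the others by Dixon's test, and chance flags about 1 set in 20. Plin2 in WT with torin1 was 196 CPM in replicate 2 (passage 9) and 203 to 204 CPM in the others. Plin2 in DKO with MK-8722 was 106 CPM in replicate 4 (passage 8) and 86.9 to 87.8 CPM in the others, and without that library its log2 fold change against DMSO went from -0.43 to -0.51. Plin4 in DKO under DMSO was 1.24 CPM in replicate 2 (passage 8) and 1.68 to 1.77 CPM in the others, and without it the difference from WT went from 1.22 to 1.32.

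Several lipid genes named in the lists responded differently in the genotypes by edgeR's interaction test (log2 response in DKO minus WT). With torin1 the response was lower in DKO for Acot1 (-2.14), Fabp3 (-1.59), Pcyt1a (-0.85), Cpt1a (-0.61), Acsl1 (-0.49), Abhd5 (-0.42), Lipa (-0.35), Gpam (-0.34) and Fitm2 (-0.30). It was higher in DKO for Pdk4 (0.99), Angptl4 (0.90), Rdh10 (0.70), Gpat3 (0.50), Acsl4 (0.43) and Fabp5 (0.29). With MK-8722 it was lower in DKO for Fabp3 (-1.42), Acsl1 (-0.50), Cpt1a (-0.49), Pcyt1a (-0.49), Soat1 (-0.42), Abhd5 (-0.41) and Fitm2 (-0.35). Acot1 rested on low counts, with 0.604 to 0.824 CPM in its highest group (WT with torin1).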

How the results depend on the processing

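The members' differences kept their sign wherever they were past the threshold, and 379 alternative values moved by less than 1 SD between libraries and 17 by more. Scaling by library size alone shifted the median of all genes with torin1 in WT to 0.14, and gave 0.76 for Plin2 and 0.89 for Plin3 there, 0.72 for Plin2 with torin1 against MK-8722 in WT, -0.08 for Plin3 between genotypes under DMSO, and -0.18 for Plin2 and -0.39 for Plin3 between genotypes under torin1 (median of all genes -0.164). On the log2(TPM + 0.1) scale, which understates changes of low genes, Plin4 gave 3.86 and 3.49 in WT with torin1 and MK-8722, 0.84 between genotypes under DMSO, and -2.92 and -2.08 for the response in DKO minus WT. On that scale Plin2 and Plin3 gave 0.80 and 0.90 with torin1 in WT and -0.15 and -0.35 between genotypes under torin1, Plin2 between the drugs in WT gave 0.74, and Plin3 with torin1 in DKO gave 0.61. The cause was not tested. Counts of called lipid genes moved with the threshold: a test against a fold change of 1.2 called 21 with torin1 in WT, 5 with MK-8722 in WT, 2 with MK-8722 in DKO, 19 between the drugs in DKO, and 5 and 2 for the responses in DKO minus WT, and the false discovery rate alone called 30 with MK-8722 in WT. With the replicate number as a block, Plin4 gave 4.43 with torin1 in WT and -3.41 for the difference in response, and the list calls there were 33 and 15. Of 24 libraries, 8 correlated best with their own replicate number, against 22 with their own passage. With passage as a block, Plin4 between the drugs in WT gave 0.33, against 0.35 without the block. Transcript use gave 0 calls under every alternative, the replicate block included. Leaving out single libraries gave 4.27 to 4.54 for Plin4 with torin1 in WT and 3.94 to 4.18 with MK-8722. Plin4 rested on 17 to 27 counts per library in WT under DMSO, which limits its fold changes.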

Other observations

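The neighbourhood of Plin2 was lower in DKO over a wide region, a pattern examined after the 5 nearest neighbours had been seen. Of 33 tested genes within 5 Mb, 20 were lower and 3 higher in DKO under DMSO by edgeR, where 48.2% of all genes were called. Their median log2 fold change was -0.44 (-0.01 over all genes). Under torin1 the median was -0.39 and under MK-8722 -0.37. Around Plin4 the medians of 54 genes were -0.03, -0.11 and -0.05. Plin2 itself differed by -0.04, -0.05 and -0.50 in the 3 treatments.

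ENSMUST00000154999, a noncoding transcript of Plin2, had the second lowest p by limma (0.00615, adjusted p = 0.441), with 10.3% ± 0.866 of Plin2 TPM with MK-8722 and 7.45% ± 1.31 under DMSO in WT (SD, n = 4 each).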
